A study of Mus musculus with 6 samples.

Results

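The loci described here lie in 3 stretches of the mouse genome in which genes for zinc finger proteins stand side by side, on chromosomes 4, 13 and 2. They were chosen by position alone: each of the loci in the count table whose span on the mm9 build overlaps chr4:144562341-147000000, chr13:65400000-68000000 or chr2:175000000-178000000 is a member, whether coding, noncoding or unannotated. The rule gave 70 of the 18420 loci in the table, 31 on chromosome 4, 27 on chromosome 13 and 12 on chromosome 2. The regions were proposed with stage differences in these same libraries already known, so their counts and changes are a description and test nothing about the regions.

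Poly(A)-selected RNA was compared between undifferentiated embryonic stem cells (day 0) and embryoid bodies at day 6, with 3 libraries of each. Both stages came from 1 reporter line, Nkx2.5-EmGFP BAC, in which a bacterial artificial chromosome carries a green fluorescent marker for an early heart gene. The growth protocol gives the line as 129/OlaHsd, subline E14Tg2A.4, whereas the strain label of every sample reads C57BL/6J. Day 0 cells were kept with LIF on embryonic fibroblast feeders or on gelatin, and which culture had which support is not labelled. Day 6 cells had been aggregated in hanging drops to induce cardiac differentiation, so they are a mixture of cell types. No age applies to these cultures, and no further treatment or genotype is labelled.

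Zinc finger proteins of the C2H2 kind hold a row of short finger modules, each of which contacts a few bases of DNA. In mammals many of them also carry a KRAB domain, which recruits the co-repressor TRIM28 and, through it, enzymes that methylate histones and DNA. Many are known for binding and silencing retrotransposons in embryonic stem cells, and their genes grew in number by tandem duplication, which left clusters of near-identical neighbours. The presence of a KRAB box was not searched for here.

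The deposited files identify loci by number only. Gene names were added by finding, in a gene annotation of another build, the transcripts with the same exon and intron lengths on the same chromosome and strand. Such a match to a single gene was found for 11, 14 and 8 member loci of the chromosome 4, 13 and 2 regions, holding 15, 40 and 9 genes. A gene is called a zinc finger gene below where its transcripts encode 3 or more C2H2 motifs, as 597 of 21951 coding genes of the annotation do. The matched zinc finger genes numbered 10 on chromosome 4, with 3 to 23 motifs each, 28 on chromosome 13, with 3 to 30, and 7 on chromosome 2, with 7 to 25. The assembly joined some neighbours into 1 locus, whose count then sums over them: XLOC_009420 on chromosome 13 spans 734869 bases and holds 19 of these genes.

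Promoter sequences show how closely the genes of a region resemble each other. RefSeq promoters (build GRCm38.p6) were on hand for 36 of the 45 matched zinc finger genes. Over the 250 bases before the start, the 8 promoters of the chromosome 4 region had a median pairwise identity of 77.4% (58.9% to 99.2%, 28 pairs). The 6 of the chromosome 2 region had a median of 82.3% (61.8% to 90.7%, 15 pairs). The 22 of the chromosome 13 region were less alike, at a median of 49.3% (41.2% to 89.3%, 231 pairs), near the median of 46.3% for pairs of genes from different regions (41.1% to 55.3%, 356 pairs).

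The following 5 stretches are shown because their genes share a promoter sequence and belong to loci that were all lower at day 6. Each covers 160 to 11 bases before the start, 5′ to 3′ on the gene's strand, which is the plus strand for all of them, and capitals mark runs of at least 12 bases found in all 5. The genes were picked after their values were known. In GRCm38.p6 the stretches lie at chr4:145670537-145670686 for Zfp980, chr4:146097152-146097301 for Zfp987, chr4:146156667-146156816 for Zfp600, chr4:147021690-147021839 for Rex2 and chr4:147553117-147553266 for Zfp985.
Zfp980: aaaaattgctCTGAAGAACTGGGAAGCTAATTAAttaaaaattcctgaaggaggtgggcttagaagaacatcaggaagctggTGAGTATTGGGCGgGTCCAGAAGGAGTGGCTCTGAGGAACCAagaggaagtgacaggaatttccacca
Zfp987: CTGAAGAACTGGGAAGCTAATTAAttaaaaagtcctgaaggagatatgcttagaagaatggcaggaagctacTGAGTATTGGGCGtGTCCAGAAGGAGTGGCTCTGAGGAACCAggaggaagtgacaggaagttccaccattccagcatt
Zfp600: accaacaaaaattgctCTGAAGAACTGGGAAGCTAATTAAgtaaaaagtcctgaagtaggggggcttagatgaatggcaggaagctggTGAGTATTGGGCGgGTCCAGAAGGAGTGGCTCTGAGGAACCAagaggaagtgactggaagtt
Rex2: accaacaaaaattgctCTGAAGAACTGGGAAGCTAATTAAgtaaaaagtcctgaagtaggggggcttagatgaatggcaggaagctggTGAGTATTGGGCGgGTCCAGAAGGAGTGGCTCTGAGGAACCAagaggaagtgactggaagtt
Zfp985: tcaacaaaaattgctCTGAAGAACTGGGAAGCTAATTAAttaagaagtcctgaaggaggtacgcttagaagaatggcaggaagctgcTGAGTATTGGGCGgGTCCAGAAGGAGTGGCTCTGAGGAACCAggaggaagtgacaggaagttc

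The capitals cover 65 of the 150 bases, and the stretches of Zfp600 and Rex2 are the same throughout. The longest shared run, GTCCAGAAGGAGTGGCTCTGAGGAACCA, was searched for on both strands of the 250 bases before every start in the RefSeq table. It occurred in 8 of 27025 genes (0.0296%), of which 6 are matched genes of the chromosome 4 region. The genes shown above hold it by construction, since the run was taken from them, and Zfp534 is the further matched gene.

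On chromosome 2 the next 3 stretches share a longer sequence. Their genes were picked after their values were known, to show loci with differing calls. A link between shared sequence and change was not tested. Gm14295 was higher at day 6, Zfp970 did not pass the test and Gm14326 was lower. Positions and capitals follow the same scheme, at chr2:176798440-176798589 on the plus strand, chr2:177464582-177464731 on the plus strand and chr2:177957299-177957448 on the minus strand of GRCm38.p6.
Gm14295: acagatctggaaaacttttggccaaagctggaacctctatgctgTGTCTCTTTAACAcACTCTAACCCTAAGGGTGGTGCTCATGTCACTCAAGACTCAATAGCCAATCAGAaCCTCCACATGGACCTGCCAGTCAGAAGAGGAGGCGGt
Zfp970: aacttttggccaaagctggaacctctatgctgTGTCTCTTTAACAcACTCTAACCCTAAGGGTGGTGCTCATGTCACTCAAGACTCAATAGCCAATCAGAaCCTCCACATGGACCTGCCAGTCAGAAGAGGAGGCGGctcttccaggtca
Gm14326: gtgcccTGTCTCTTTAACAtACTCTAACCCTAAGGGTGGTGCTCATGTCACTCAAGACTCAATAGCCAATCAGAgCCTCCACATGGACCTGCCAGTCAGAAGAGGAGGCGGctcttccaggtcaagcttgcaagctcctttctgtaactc

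Here 103 of the 150 bases are in shared runs. The longest run, of 54 bases, occurred before the start of 26 genes of the RefSeq table (0.0962%), 5 of them matched members. The genes shown hold it by construction, and Gm14403 and Zfp971 are the further matched members. Near-identical copies also reach into the transcripts, which matters for counting: of the 100-base windows of a locus's matched transcripts, the length of 1 read, a median of 64.4% occurred exactly in transcripts of other genes for the 7 zinc finger loci of chromosome 4 (1.92% to 77.3%), 18.3% for the 6 of chromosome 2 (0% to 69.7%) and 2.15% for the 7 of chromosome 13 (0% to 16.5%). The sources used here do not say how the authors' counting assigned such reads, so values of loci with a high share are uncertain between copies.

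The libraries held 106306699 to 114092201 counted reads. Replicates varied more at day 0 than at day 6, with a median log2 SD over loci of 0.40 against 0.14. Loci entered the test if 3 or more of the 6 libraries reached 10 normalized counts. A locus was called higher or lower at day 6 where the limma adjusted p over all 17145 tested loci was under 0.05. That rule called 44% of the tested loci of the whole table, 22.2% higher and 21.8% lower, and the median change of all of them was 0.02 on the log2 scale. Stage markers behaved as follows: of 8 listed pluripotency genes 5 were matched to a locus, and 4 of those were lower at day 6 (Zfp42, Esrrb, Klf4 and Tdgf1), and Nanog had an adjusted p of 0.0799. The 4 matched of 7 genes of early mesoderm and heart, T, Nkx2-5, Tnnt2 and Actc1, were higher. Tdgf1 passed the filter through its day 0 libraries alone and T through its day 6 libraries alone. Both had few counts, and the filter partly set their direction. Actc1 overlapped between the stages, with 117 normalized counts in day 0 replicate 2 and 63.7 in day 6 replicate 3 (limma adjusted p = 0.0485). Of 7 matched markers of fibroblast feeders (8 listed), Col1a2, Thy1 and Dcn were lower and Postn was higher, and none was at 0 in any library. Their summed normalized count ranged from 52631 to 223756 at day 0, lowest in replicate 2 and highest in replicate 3, and from 108097 to 149475 at day 6.

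The 7 loci with zinc finger genes in the chromosome 4 region were each lower in embryoid bodies, as were most of their neighbours. The region's 31 loci held 0.143%, 0.182% and 0.183% of all normalized counts in day 0 replicates 1, 2 and 3, and 0.0449%, 0.0452% and 0.0569% in the day 6 libraries. The groups did not overlap, and the share fell from 0.169% ± 0.0226 to 0.0490% ± 0.00682 (SD, n = 3 each, exact permutation p = 0.1, the smallest that 3 against 3 allows). Of the 29 tested loci 23 were lower by limma, none was higher, also at an unadjusted p under 0.05 or by edgeR or DESeq2, and 6 did not pass. The share of loci called lower in the whole table was 21.8%. Of the 29, 1 locus, XLOC_024859, was under 10 normalized counts in every day 6 library. At day 6, XLOC_025868 reached 10 only in replicate 2 (12.3), and XLOC_024861 (13.2) and XLOC_024870 (12.2) only in replicate 1. These named loci passed the filter mainly through day 0, which favours a fall, and all of them are among the 23 called lower. All 29 had a log2 change below 0, with a median of -1.77 and a range from -3.64 to -0.38. Of the 23 loci called, 20 were at least 2-fold lower and 12 at least 4-fold. Falls of 2-fold or more were also common among called loci genome-wide. There, 3744 tested loci were called lower, 2987 of them at least 2-fold and 1447 at least 4-fold. In bulk RNA, fewer cells that express the genes of the region and less RNA per cell cannot be told apart.

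**Figure D1:**
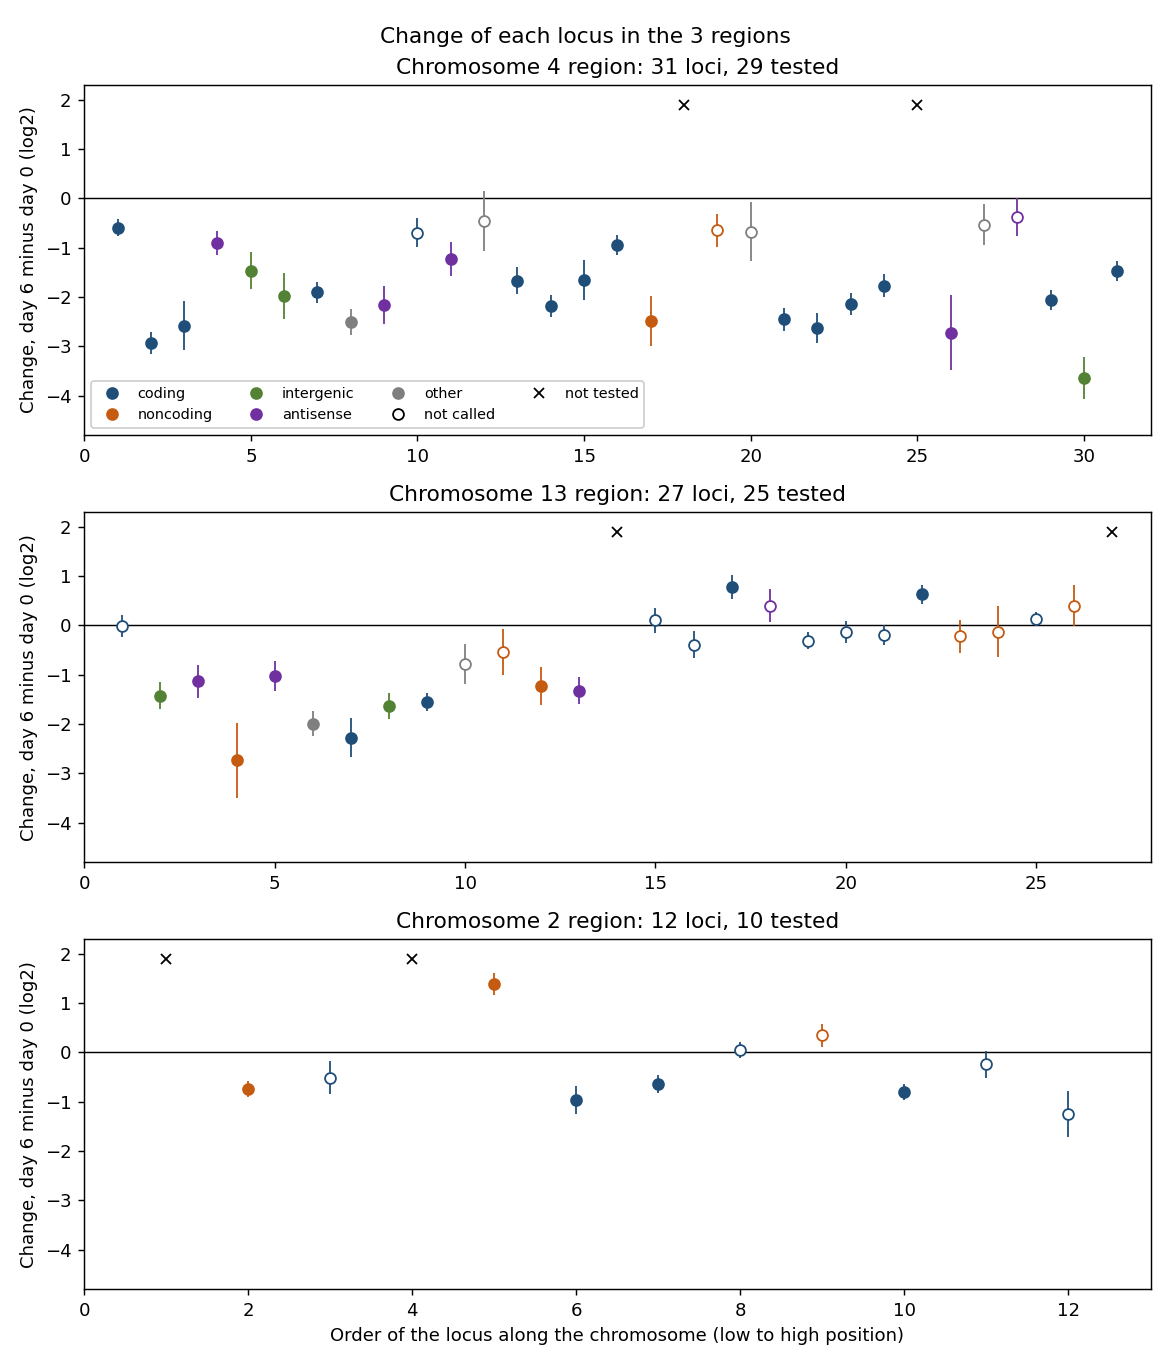
Change of every member locus between day 0 and day 6 (y axis, log2, bars are the SE of the fit), in order along each chromosome (x axis). Filled points were called, open points were not, colours give the class of the locus, and crosses, placed at an arbitrary height, are loci too low to test. All 29 tested loci of the chromosome 4 region lie below 0, from -3.64 to -0.38.

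The 7 chromosome 4 loci with a zinc finger gene were all lower, with log2 changes from -2.63 to -1.48 (median -2.14). Zfp980, on XLOC_024858 (chr4:145260600-145294340, plus strand, mm9), had the highest level of the region per exonic kilobase. Its normalized counts were 16708, 30025 and 25015 at day 0 and 4665, 4744 and 5957 at day 6. The lowest day 0 library was thus well above the highest day 6 library, and the log2 change was -2.19 (SE 0.22, limma adjusted p = 0.00017). Zfp600, on XLOC_024866 (chr4:146124225-146166150, plus strand), had the largest fall among the zinc finger loci. It went from 5227, 12496 and 9569 to 1267, 1368 and 1530, a change of -2.63 (SE 0.30, adjusted p = 0.000278). Day 0 replicate 2 held more than the other 2 day 0 libraries here, and no day 6 library came near any of them.

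Zfp987, next to Zfp600 on XLOC_024865, had 4364, 7058 and 6872 normalized counts at day 0 and 949, 996 and 1358 at day 6. XLOC_024867, matched to Zfp991 and spanning chr4:146219562-146887529, had 28510, 47444 and 45248 at day 0 and 7855, 8532 and 10625 at day 6. Both were 4-fold lower or more, at -2.45 and -2.14 on the log2 scale. The locus with Rex2 and Zfp989, XLOC_024868, was the lowest of the 7 per length. It held 1525, 1800 and 1623 counts at day 0 and 419, 432 and 624 at day 6, a change of -1.77.

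Zfp985, on XLOC_024871, is the zinc finger locus of the region whose reads are least shared with other genes (1.92% of windows). Its values were 8622, 12102 and 11712 at day 0 and 2256, 2358 and 3208 at day 6. The change was -2.05 (SE 0.20, limma adjusted p = 0.00014), and the stages were far apart. XLOC_025886, on the opposite strand at the high edge of the region, joins Zfp979, Zfp534, Zfp984 and Gm20707. It held the most counts of the region, 36468, 62784 and 50615 at day 0 and 16380, 17005 and 19287 at day 6, and changed least of the 7, by -1.48. In all 7 loci day 0 replicate 1 was the lowest and replicate 2 the highest of the day 0 libraries, and day 6 replicate 3 was the highest of day 6. Feeder markers ran differently among the day 0 libraries, with sums of 102393, 52631 and 223756 in replicates 1, 2 and 3, and their part in the fall was not tested.

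**Figure D2:**
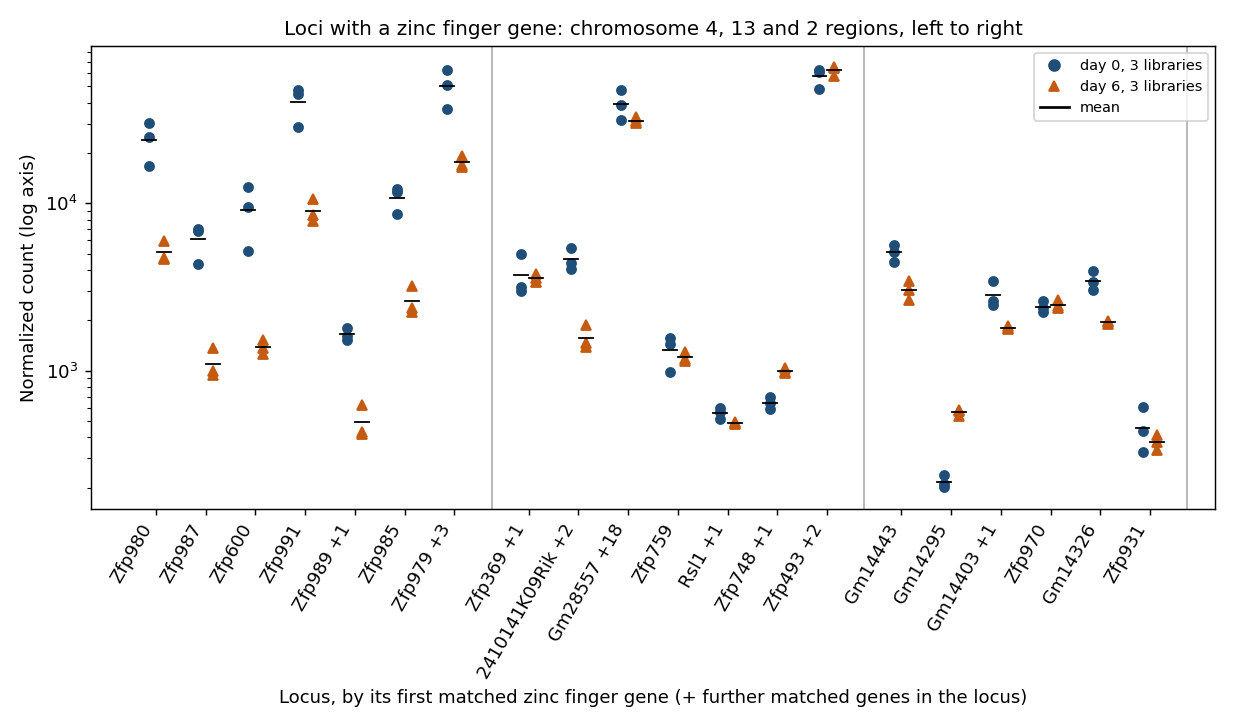
Normalized counts (log axis) of the 20 member loci with a zinc finger gene in each library, named by the first matched zinc finger gene of the locus, with the mean of each stage as a line. The 3 day 6 libraries lie below the 3 day 0 libraries in all 7 chromosome 4 loci, while most chromosome 13 loci overlap. Among all tested loci, the day 6 libraries lay wholly below day 0 in 27.7% and wholly above in 29.5%.

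Levels compared per length show the same. The median over the 7 loci was 1347 normalized counts per exonic kilobase at day 0 and 323 at day 6, from 194 to 5994 at day 0 and from 57.9 to 1284 at day 6. For the 385 zinc finger loci elsewhere in the table the medians were 225 and 251. Of the 384 tested there 109 were higher and 59 lower, with a median log2 change of 0.14. On chromosome 4 outside the region, 3 of 21 were higher and 4 lower, with a median of 0.15. These counts set the members beside other zinc finger genes and are no test of a difference, since the region was chosen with its values known.

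**Figure D3:**
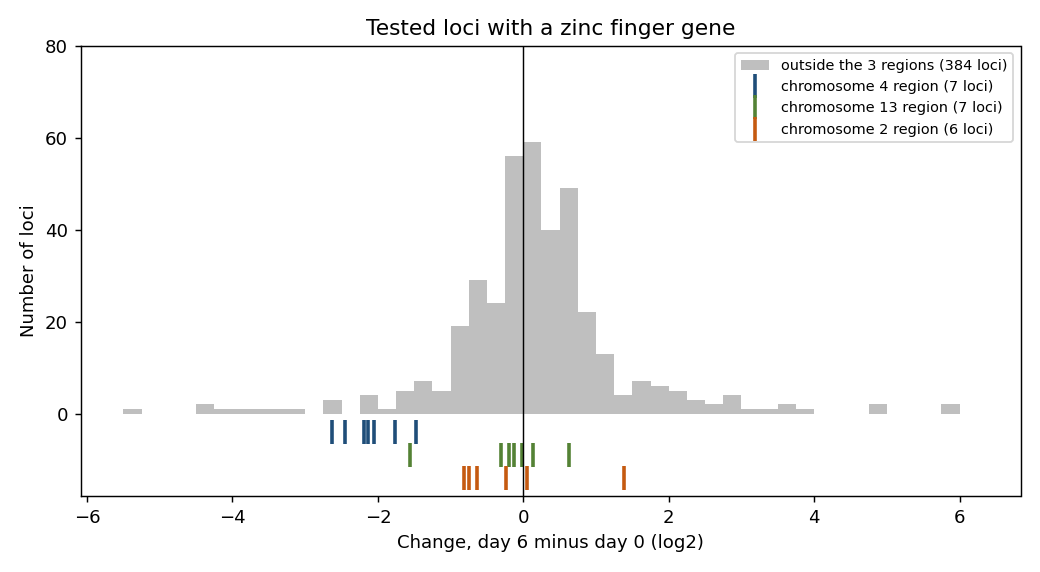
Log2 change from day 0 to day 6 (x axis) of tested loci with a zinc finger gene. Grey bars count the 384 loci outside the regions, and coloured ticks, set under the axis, mark the 7, 7 and 6 loci of the chromosome 4, 13 and 2 regions. The chromosome 4 ticks lie from -2.63 to -1.48, where the grey bars are low.

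Neighbours of other kinds in the chromosome 4 region were also lower. Tnfrsf1b, a receptor for tumour necrosis factor, is at XLOC_025864 (chr4:144802004-144836774, minus strand). It had 3949, 3019 and 4989 normalized counts at day 0 and 554, 478 and 503 at day 6, a change of -2.93 (SE 0.22, limma adjusted p = 4.56e-05). Tnfrsf8, which encodes the receptor CD30, had 145, 371 and 370 at day 0 and 38.5, 29.7 and 76.2 at day 6, a change of -2.58 (SE 0.49, adjusted p = 0.00361). Day 0 replicate 1 was again the lowest for Tnfrsf8, while Tnfrsf1b was lowest in replicate 2 and highest in replicate 3, the order of the feeder sums. Neither gene carries a C2H2 motif.

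Of the 15 tested coding loci of the region 14 were lower, beside 21.8% of all tested loci. Those with other annotation were fewer: 1 of 2 tested noncoding loci was lower, as were 3 of 3 unannotated intergenic loci, 4 of 5 unannotated antisense loci and 1 of 4 of other kinds. Among tested loci of the whole table, 20.2% of coding, 20.5% of noncoding, 34.0% of intergenic, 31.0% of antisense and 19.0% of other loci were lower. The largest fall of the region was in an unannotated intergenic locus, XLOC_024872 (chr4:146960681-146961712, plus strand), which starts just past the end of Zfp985. It had 416, 285 and 596 normalized counts at day 0 and 20.3, 31.8 and 52.2 at day 6, a change of -3.64 (SE 0.43, adjusted p = 0.000334). Its day 0 libraries also had the order of the feeder sums. The 7 matched feeder markers moved in both directions: Thy1 (-3.50), Dcn (-3.43) and Col1a2 (-1.69) were lower and Postn (1.58) was higher. Col1a1 (0.75), Col3a1 (1.19) and Lum (0.10) did not pass. The part of feeder cells in the falls of XLOC_024872 and Tnfrsf1b was not tested. The most abundant unannotated locus, XLOC_025866, is antisense and had 981, 1484 and 1030 counts at day 0 and 587, 533 and 718 at day 6. Its call at -0.91 (adjusted p = 0.016) was lost without day 6 replicate 1 (-0.89) or day 6 replicate 2 (-0.82).

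Loci of the region without a matched gene, 20 in all, included 13 called lower of 19 tested (median -1.47), beside 21.8% of all tested loci. Among them the coding XLOC_024853 (chr4:145036719-145215337, plus strand) had 7621, 6823 and 8726 normalized counts at day 0 and 1756, 1768 and 2784 at day 6, a change of -1.90. XLOC_025869, antisense over nearly the same span, had 215, 119 and 205 at day 0 and 31.4, 30.8 and 56.4 at day 6, a change of -2.17. The coding XLOC_025875, which spans chr4:145540561-146311515 on the minus strand, changed less, from 5854, 6710 and 8364 to 3100, 3352 and 4429 (-0.95).

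Of the 6 loci that did not pass, the most abundant was the coding XLOC_024855, the only tested coding locus of the region not called. It had 2150, 5020 and 3112 normalized counts at day 0 and 1826, 1892 and 2296 at day 6 (-0.69, SE 0.29, limma adjusted p = 0.09), so that the stages overlapped by 1 library. It was called lower with the replicate block, with DESeq2 and without day 0 replicate 1 (-0.99). The noncoding XLOC_024863 had 737, 1872 and 1134 normalized counts at day 0 and 665, 794 and 768 at day 6 (-0.65, SE 0.33, limma adjusted p = 0.146), with overlapping groups. It was called without day 0 replicate 1 (-0.98). XLOC_024864, second in the region per exonic kilobase, had 226, 658 and 265 at day 0 and 95.3, 243 and 416 at day 6 (-0.67, SE 0.59, adjusted p = 0.389). Here the stages overlapped widely, and both varied: the change was -0.10 without day 6 replicate 1, -0.20 without day 0 replicate 2 and -1.16 without day 6 replicate 3. The 2 loci too low to test were read mainly at day 0: XLOC_024862 reached 10 normalized counts in day 0 replicate 1 only and had 0 to 2.09 at day 6. The noncoding 4933438K21Rik had 99.4, 2.07 and 78.8 at day 0 and 0 to 3.13 at day 6.

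The loci just outside the chromosome 4 region did not pass. Just inside the low edge Vps13d, a large lipid transfer protein, had 14797, 10015 and 11259 normalized counts at day 0 and 8385, 7473 and 7801 at day 6. Its small change of -0.59 was called in the fit of all libraries but not with plain variance estimation, nor without day 6 replicate 1 (-0.64), day 6 replicate 2 (-0.55) or day 6 replicate 3 (-0.58). Just outside, Dhrs3 (1.32) did not pass, though it was called with weights by stage, with the replicate block (adjusted p = 0.0264) and without day 0 replicate 1 (1.77). It was 0.55 without day 0 replicate 2. Just beyond the high edge, next to the locus with Zfp979, lies Zfp933, a zinc finger gene at 0.64 that did not pass in the fit of all libraries and was called without day 0 replicate 2 (0.94).

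The chromosome 13 region was mixed, and its most abundant zinc finger genes were not called. Its 27 loci held 0.102%, 0.115% and 0.115% of counts in day 0 replicates 1, 2 and 3, and 0.0955%, 0.0945% and 0.0952% at day 6 (means 0.111% ± 0.00735 and 0.0951% ± 0.000505, SD, n = 3 each, exact permutation p = 0.1). The stages did not overlap, although the difference was small. Of 25 tested loci 2 were higher, 10 lower and 13 neither, beside 22.2% higher and 21.8% lower over the table. The median change was -0.39 and the range -2.74 to 0.78, where the lower end is the noncoding XLOC_008807. That locus had 17.4, 33.1 and 16.0 normalized counts at day 0 and 4.06, 6.15 and 0 at day 6, so it passed the filter through its day 0 libraries alone. Its call was lost with weights by stage and without day 0 replicate 2 (-2.42). Of the 7 loci with a zinc finger gene 1 was higher and 1 lower, and their median was -0.13.

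XLOC_008824, with Zfp493 and Zfp273, alone held 52.5% of the region's counts. It had 48471, 62580 and 61324 normalized counts at day 0 and 64011, 65308 and 58014 at day 6 (0.13, SE 0.14, limma adjusted p = 0.504). The stages overlapped, at 1486 and 1615 counts per exonic kilobase. The joined locus XLOC_009420, with Zfp712, Zfp708, Zfp457, Zfp58, Zfp729a, Zfp729b and others, had 31309, 47324 and 38748 at day 0 and 30847, 30115 and 32708 at day 6. Its change of -0.31 (SE 0.17, adjusted p = 0.169) did not pass, but was called without day 0 replicate 1 (-0.46, adjusted p = 0.02) and with quantile normalization (-0.31). A sum over 19 genes does not show what each of them did.

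The smaller zinc finger loci near them did not pass either. Zfp759 had 1447, 987 and 1572 normalized counts at day 0 and 1289, 1176 and 1136 at day 6, a change of -0.13 (SE 0.22). Rsl1, known as a repressor of male-specific liver genes, shares its locus with Zfp455. This locus had 598, 564 and 515 at day 0 and 484, 490 and 493 at day 6, so that the stages did not overlap, but the difference of -0.19 (SE 0.21, limma adjusted p = 0.487) did not pass.

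The 2 loci called higher rested on small changes. XLOC_009422, with Zfp748 and Zfp85, had 701, 641 and 587 normalized counts at day 0 and 987, 1031 and 974 at day 6, all above day 0 (0.64, SE 0.19, limma adjusted p = 0.028). The call was lost with the replicate block (adjusted p = 0.0596) and without day 0 replicate 3 (0.57), day 6 replicate 1 (0.64), day 6 replicate 2 (0.61) or day 6 replicate 3 (0.65). Ptdss1, a phosphatidylserine synthase, had 1582, 3161 and 2304 at day 0 and 3802, 4049 and 3829 at day 6 (0.78, SE 0.25, adjusted p = 0.0316). It was lost with quantile normalization (0.61), plain variance estimation and edgeR (0.69), and without day 0 replicate 3 (0.80) or day 6 replicate 1 (0.80), 2 (0.76) or 3 (0.80). In each of these fits the direction stayed the same.

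Falls on chromosome 13 lay on the low side of the region. The region was split at Gm10767, a point picked after the values were seen. The low side had 10 of 13 tested loci lower, XLOC_008807 among them, and 3 neither (median -1.32). The high side had 2 of 12 higher and 10 neither (median -0.01). These stand beside 21.8% lower and 22.2% higher over the table. Of the 14 low-side loci 11 had no matched gene and 6 shared over 50% of their exonic bases with other loci, so that their counts are not independent. The sources used here do not say whether counting used strand, and reads from loci that overlap on opposite strands may then not be told apart. The edges give no sharp border: inside the low edge, Zfp369 had 4993, 2982 and 3172 counts at day 0 and 3772, 3605 and 3382 at day 6 (-0.01, SE 0.21), while Nlrp4f, just outside, was lower (-2.05). Beyond the high edge Mtrr, an enzyme of methionine synthesis, was lower (-0.60), and the last locus inside, the intergenic XLOC_008826, had 5.13 to 14.6 counts and was not tested.

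Unlike Zfp369, the low-side loci that follow were lower in each day 6 library than in any day 0 library. The coding locus XLOC_008809 (chr13:66214389-66223772, plus strand), highest of the low side per exonic kilobase, had 716, 2175 and 1530 normalized counts at day 0 and 229, 272 and 334 at day 6 (-2.28, SE 0.40, limma adjusted p = 0.00237). XLOC_009412, with the zinc finger gene 2410141K09Rik, had 4050, 5433 and 4379 at day 0 and 1469, 1390 and 1866 at day 6 (-1.55, SE 0.19). It overlaps XLOC_008812, an antisense locus on the other strand and the most abundant unannotated one of the region. That locus had 1141, 2157 and 1430 at day 0 and 566, 524 and 762 at day 6 (-1.32, SE 0.28, adjusted p = 0.00621).

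Without annotation or of another kind, 2 further low-side loci changed as much. XLOC_008808, a locus of mixed class over chr13:66159753-66963083, had 2498, 4332 and 3513 normalized counts at day 0 and 729, 778 and 1058 at day 6, a change of -1.99. The intergenic XLOC_008810 went from 844, 505 and 631 to 208, 189 and 228, a change of -1.63. Among noncoding loci of the region 2 of 6 were lower and 4 did not pass, beside 20.5% lower among tested noncoding loci of the whole table. The 2 were XLOC_008807, described above, and Gm26806, with 53.2, 62.1 and 58.8 normalized counts at day 0 and 23.3, 16.4 and 36.5 at day 6, which kept its call in 11 of 16 alternative fits. The most abundant of the 6, 4930525G20Rik, had 32.3, 74.6 and 81.8 counts at day 0 and 76.0, 65.6 and 92.9 at day 6 (0.40, SE 0.42), with overlapping stages.

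**Figure D4:**
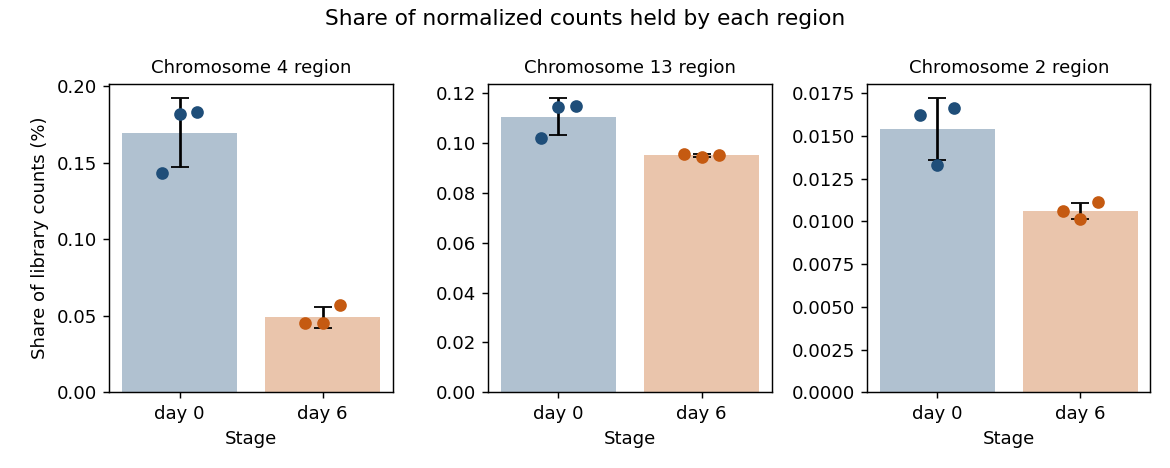
Share of all normalized counts (y axis, percent, starting at 0) held by the loci of each region at day 0 and day 6. Bars are means, error bars the SD over 3 libraries and points the libraries. The chromosome 4 share went from 0.169% to 0.0490%, with smaller differences on chromosomes 13 and 2.

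The chromosome 2 region held the fewest counts, and its zinc finger genes moved in both directions. Its share was 0.0162%, 0.0133% and 0.0166% in day 0 replicates 1, 2 and 3, and 0.0106%, 0.0102% and 0.0111% at day 6, with no overlap (means 0.0154% ± 0.00182 and 0.0106% ± 0.000474, SD, n = 3 each, exact permutation p = 0.1). Of 10 tested loci 1 was higher, 4 were lower and 5 were neither, with a median of -0.58. The table as a whole had 22.2% higher and 21.8% lower. Of the 6 loci with a zinc finger gene 1 was higher and 3 were lower. No called fall reached 2-fold.

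Gm14295, with 25 C2H2 motifs, was the only called rise of the region. It is at XLOC_020321 (chr2:176583321-176593409, plus strand, mm9) and had 201, 211 and 238 normalized counts at day 0 and 535, 578 and 582 at day 6, a change of 1.38 (SE 0.23, limma adjusted p = 0.00162). The stages were far apart relative to their spread, and the call was kept in all 16 alternative fits. Of its windows 69.7% occurred in other genes, so which copy the reads came from is uncertain. Zfp970, whose promoter is 90.1% identical to that of Gm14295, had 2236, 2600 and 2354 at day 0 and 2444, 2628 and 2362 at day 6 (0.05, SE 0.16, adjusted p = 0.821). Its stages overlapped throughout.

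Among zinc finger loci of chromosome 2 the larger falls were in Gm14326 and Gm14443. Gm14326, highest of the region per exonic kilobase, had 3051, 3369 and 3925 normalized counts at day 0 and 1967, 1995 and 1909 at day 6 (-0.81, SE 0.16, limma adjusted p = 0.00448). Of its windows 61.6% occurred in other genes, so which copy its reads came from is uncertain. Gm14443, none of whose windows occurred in another gene, had 5657, 4472 and 5146 at day 0 and 3033, 2660 and 3444 at day 6 (-0.74, SE 0.17, adjusted p = 0.00765). In both, the day 6 libraries lay below all day 0 libraries. The Gm14443 locus spans chr2:174968195-175001413, so it crosses the low edge at 175000000 and lies mostly outside the region. It held 28.4% of the region's counts. The locus with Gm14403 and Zfp971 had 2480, 2617 and 3449 at day 0 and 1799, 1858 and 1768 at day 6 (-0.64). Its call was lost with any 1 of the day 6 libraries left out, at an adjusted p of at most 0.0807.

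XLOC_021561, a coding locus with no single gene match, had 237, 314 and 215 normalized counts at day 0 and 144, 104 and 143 at day 6 (-0.96, SE 0.29, limma adjusted p = 0.0262). Its call was lost with quantile normalization (-0.77) and weights by stage, and without day 6 replicate 1 (-1.05), day 6 replicate 2 (-0.81) or day 6 replicate 3 (-1.04), and 89% of its exonic bases lie in other loci. Zfp931, which shares 81.3% of its exonic bases with other loci, had 604, 436 and 329 at day 0 and 413, 335 and 377 at day 6 (-0.24, SE 0.28). It did not pass, and its stages overlapped.

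Class labels of this region depended on the annotation. The 3 loci without a protein identifier in the authors' file, here counted as noncoding, matched Gm14443, Gm14295 and Gm14327, which the annotation used for names lists as protein-coding. Gm14327, in which no motif was found, had 945, 1456 and 1669 normalized counts at day 0 and 1736, 1597 and 1701 at day 6 (0.35, SE 0.24, limma adjusted p = 0.273). Of the 7 tested loci counted as coding 3 were lower and 4 did not pass, beside 20.2% lower among tested coding loci of the whole table. The region held no unannotated locus in the table.

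At the high edge of the chromosome 2 region Phactr3, a regulator of actin and protein phosphatase, had 529, 135 and 261 normalized counts at day 0 and 110, 99.4 and 126 at day 6. The stages did not overlap, and the change of -1.25 (SE 0.47, limma adjusted p = 0.0619) did not pass, though it was called with weights by stage, with the replicate block, with edgeR (-1.50), with DESeq2 (-1.48) and without day 0 replicate 2 (-1.73). It was -0.75 without day 0 replicate 1. Beyond it Sycp2, a protein of the meiotic chromosome axis, was lower (-0.83), a call lost without day 0 replicate 1 (-0.71) or day 6 replicate 1 (-0.93), 2 (-0.77) or 3 (-0.78). At the low edge XLOC_021543, with 1.03 to 11.2 counts, was not tested, and the Gm14443 locus described above also crosses this edge. Gm14399, just outside, did not pass at 0.73 and was called with quantile normalization (0.93), plain variance estimation, DESeq2 (0.69) and without day 0 replicate 1 (0.90).

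Genes of the co-repressor pathway that acts with KRAB zinc finger proteins were read from the same libraries. Of a list of 14, 10 matched a locus of their own, of which 5 were lower and 5 did not pass (median -0.37), beside 21.8% lower over the table. Trim28, Setdb1, Cbx3 and Uhrf1 were not matched and are not analysed here. Dnmt3b, a DNA methyltransferase, had 27262, 49285 and 76208 normalized counts at day 0 and 22160, 24593 and 26679 at day 6 (-0.94, SE 0.32, limma adjusted p = 0.0454). Zfp57, a KRAB zinc finger protein that guards genomic imprints, was low at both stages, with 59.3, 41.4 and 55.8 at day 0 and 14.2, 19.5 and 21.9 at day 6 (-1.45, SE 0.36, adjusted p = 0.0111). Morc3 (-0.64), Smarcad1 (-0.65) and Atf7ip (-0.48) fell less, and the DNA methyltransferase Dnmt1 (-0.25, limma adjusted p = 0.127) did not pass. The other matched genes of the list, Cbx1 (0.51), Cbx5 (0.10), Dnmt3a (0.15) and Zfp809 (0.98), had positive changes and did not pass either.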

How the data were processed

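RNA was read in 6 libraries, 3 per stage, grouped by the labels. The deposited table holds a signal per locus: the authors divided read counts by 1 size factor per library, as read from the values, which in each column are whole multiples of 1 step (100% of values within 0.01 reads). In day 0 replicate 3 the step cannot be told from rounding. Per the submitters' processing notes, mm9, DESeq, HTSeq 0.5.4p3, Cufflinks 2.1.1 and TopHat2 2.0.8 were used, with no role or order stated. Exon positions and class codes came from the authors' merged assembly. Columns left unused numbered 0.

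Members and gene lists were chosen with earlier results of these data known. Day 6 was compared with day 0 by limma 3.58.1 in R 4.3.3 (trend and robust estimation, no block) on log2(normalized count + 1), a scale on which the change of low loci is understated, two-sided, with Benjamini-Hochberg adjustment over 17145 loci at 0.05. A single spread was fitted for both stages. The design text calls the libraries biological replicates. The labels mention no molecular identifiers, so PCR copies of 1 molecule may count more than once. The steps were tested on simulated data. edgeR 4.0.16 and DESeq2 1.42.0 were run on the recovered reads as alternatives, beside quantile normalization, pseudocounts of 0.5 and 5, no filter, a minimum of 50, plain variance estimation, weights by stage, a replicate block, each library left out, loci wholly inside the regions, and loci sharing at most 10% of their exonic bases.

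Of 95347 identifiers in the assembly 0 matched the name tables used. Names were therefore assigned by structure, a step added after the data had been seen: loci with at least 2 introns were matched to GENCODE vM21 (GRCm38) transcripts by exact intron and inner exon lengths on the same chromosome and strand, and only matches to a single gene were kept. No coordinate was moved between builds. Neighbouring matched genes kept the GRCm38 order in 14 of 14, 31 of 39 and 8 of 8 pairs of the chromosome 4, 13 and 2 regions. The marker lists were to be used only if the files paired identifiers with symbols, so their use through these names is an addition. Motifs were counted by codon pattern in the annotated transcripts, and promoters came from RefSeq (first entry per gene).

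A locus was classed coding or noncoding by whether a transcript equal to an annotated one has a protein identifier in the assembly, intergenic or antisense from the class codes, and otherwise other. Loci named by rule were, in each region, the 3 largest called rises and falls averaging 50 or more in their higher stage, the 2 highest per exonic kilobase, the most abundant noncoding and unannotated locus, and those at each edge. Further zinc finger loci and neighbours were named after their values were seen. Python 3.11.15, pandas 2.3.3, numpy 2.4.6, scipy 1.17.1 and matplotlib 3.10.9 were used.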

Additional observations from a re-analysis of the deposited data

How the results depend on the processing

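In the chromosome 4 region 17 to 25 loci were lower (23 in the fit reported) and 0 higher under all 18 alternatives. The lowest count, 17, came without day 6 replicate 2. The number of loci tested there also differed, from 24 to 31, with 29 in the fit reported. On chromosome 13, 7 to 11 were lower (10 reported). The number higher there, 2 as reported, was 1 with quantile normalization, plain variance estimation, the replicate block or edgeR, and 0 to 2 with 1 library left out. It was 0 among the 14 tested loci sharing at most 10% of exonic bases. Both rises are left out by that limit, since XLOC_009422 shares 40.3% and the Ptdss1 locus 41.8%, so this 0 is no lost call. On chromosome 2, where 4 were lower as reported, 2 were lower among loci sharing at most 10%, and 2 to 5 with 1 library left out. That limit left out XLOC_021561 (89.0% shared) and XLOC_020324 (67.7%), both called lower. Keeping only loci sharing at most 10%, the difference in share of counts was -0.0846 percentage points for chromosome 4 (-0.120 reported). For chromosome 13 it was -0.0103 (-0.0156 reported). Fewer loci enter both. Of 40 called members 26 kept their call in all alternatives that gave a value, and 0 were called in the opposite direction in any. Deviations of libraries with the same number correlated at 0.176, 0.134 and 0.0741, so the numbers were not taken to pair the libraries, although each library correlated best with its own number. With the replicate block 24, 10 and 5 loci were lower in the chromosome 4, 13 and 2 regions, and 0, 1 and 1 were higher. Spread at both stages limits XLOC_024864, few counts limit XLOC_008807, and copies limit which gene a read is given to.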
